A study of Bos taurus with 6 samples.

Results

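The miR-17, miR-18 and miR-19 families are groups of related miRNAs, of which 10 bovine members were sought by name: bta-miR-17-5p, bta-miR-18a, bta-miR-18b, bta-miR-19a, bta-miR-19b, bta-miR-20a, bta-miR-20b, bta-miR-93, bta-miR-106a and bta-miR-106b. Of these, 8 were among the 512 miRNAs listed in the EV libraries and are described here. bta-miR-18b and bta-miR-106a were not in that list and were not analysed here.

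The libraries held small RNA of extracellular vesicles (EVs), the membrane-bound particles that cells release into their medium. Bovine granulosa cells, the somatic cells that surround the oocyte in the ovarian follicle, were taken from small antral follicles of slaughterhouse ovaries and cultured in DMEM/F-12 with FBS depleted of exosomes. After a common first culture at 37 °C, the cells of 1 group stayed at 37 °C (control-EVs, 3 libraries) and those of the other were kept at 42 °C for 24 h (HS-EVs, 3 libraries). The EVs were precipitated from spent medium with ExoQuick-TC after larger vesicles had been spun out, and the small RNA was ligated to adapters with unique molecular identifiers. The labels give no genotype, breed or animal age, and no source used here says whether a replicate came from 1 cow or several, so the p-values below measure the spread between these libraries.

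miRNAs act by pairing their seed, a short stretch near the 5′ end, with messenger RNAs, so members with the same seed share many predicted targets. The miR-17 seed family (miR-17-5p, miR-20a, miR-20b, miR-93, miR-106a, miR-106b) is known for repressing brakes on the cell cycle such as CDKN1A, and the miR-18 family for acting on the TGF-beta pathway. The members are made from polycistronic transcripts: the miR-17-92 cluster, best known for its link with proliferation, and its paralogues miR-106a-363 and miR-106b-25. In the bovine RefSeq annotation MIR17, MIR18A, MIR19A, MIR20A, MIR19B and MIR92A-1 were neighbours, as were MIR106A, MIR18B, MIR20B, MIR19B-2, MIR92A-2 and MIR363. MIR106B, MIR93 and MIR25 lay within MCM7, which encodes a subunit of the helicase that opens DNA for replication. bta-miR-19b and bta-miR-92a each had a gene in both of the first clusters, so their reads were assigned to neither.

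The deposited normalized read counts were whole multiples of 1 value in each library (100% of values, within 0.01 of a whole number), from which read numbers were recovered on the assumption that this value is 1 read. The recovered totals were 274434 to 2360980 reads per library, and bta-miR-1246, a miRNA abundant in many EV preparations, took 59.9% to 98.6% of them. HS-EVs replicate 1 stood apart, with the largest total, the largest share of bta-miR-1246 and the fewest other reads (34141, against 73569 to 235634 in the other 5 libraries), so that 1 of its reads was worth 4.11 normalized counts. In all 6 libraries the recovered total was above the number of reads that the study lists as mapped to miRNAs, and the source of this gap is not known. If the deposited unit is less than 1 read, the counting intervals and limits below are too narrow. The values of HS-EVs replicate 1 have the largest counting error, and results that rest on it are also given without it. In these bulk libraries, fewer vesicles of a kind and less RNA per vesicle cannot be told apart.

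Together the 8 members had 473 reads (HS-EVs replicate 1) to 4686 reads (control-EVs replicate 2), which was 1.39% to 2.28% of all reads other than those of bta-miR-1246. Their summed normalized read count was 2175, 3268 and 2897 in the control-EVs (replicates 1, 2 and 3) and 1943, 3099 and 2326 in the HS-EVs. The groups overlapped, with means of 2780 ± 556 and 2456 ± 588 (SD, n = 3 each). Levels of the members were compared per recovered read, without a length correction, and how well the ligation captured each miRNA is not known.

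By level the members fell into tiers. miR-93 was the most abundant in every library and ranked between 15 and 21 of the 512 miRNAs, and miR-20a followed in every library at rank 31 to 51. miR-19b, miR-17-5p and miR-19a formed a middle tier of 16.4 to 181 normalized read counts. miR-18a and miR-106b had 5.93 to 27.7 normalized read counts and miR-20b less than 2. By the criterion of 10 normalized read counts in at least 2 of 3 libraries, 6 members were detected in both groups. The exceptions were miR-106b, which reached 10 in 1 control-EV library, and miR-20b, which reached it in none. Detection of miR-18a in HS-EVs rested on HS-EVs replicate 1, where 12.3 normalized read counts came from 3 reads. Without that library miR-18a reached 10 in HS-EVs replicate 2 only (20.9, against 9.78 in replicate 3).

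**Figure D1:**
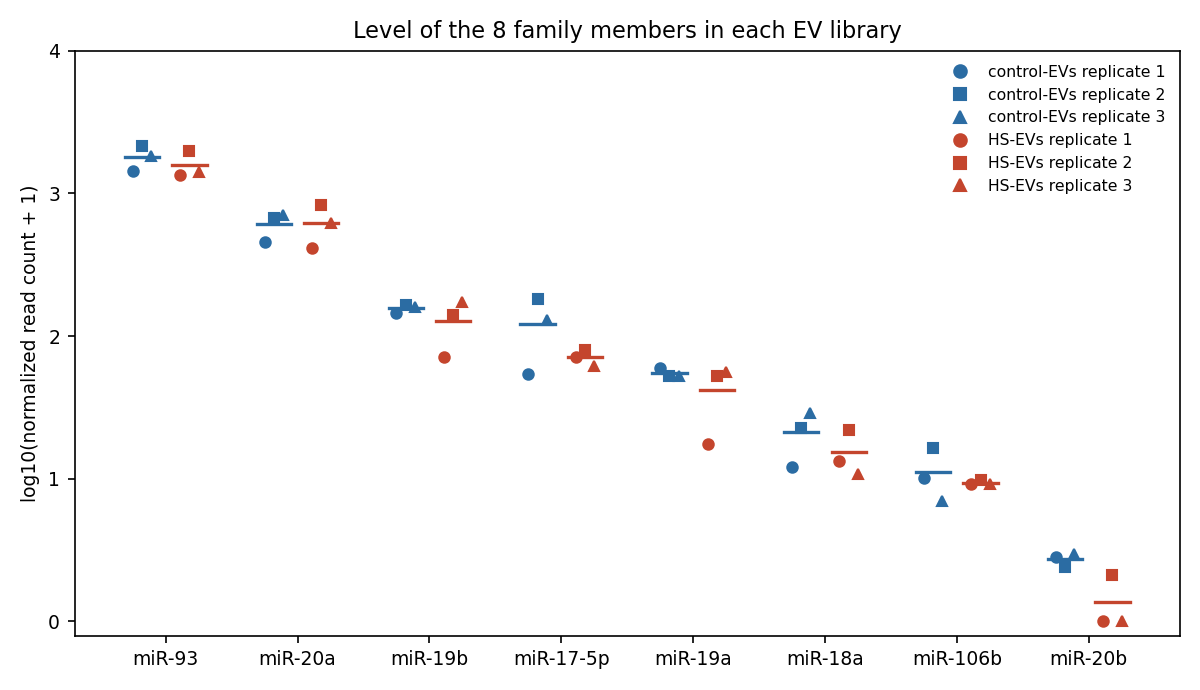
Normalized read count of each of the 8 members in the 6 EV libraries, plotted as log10(normalized read count + 1) with 1 symbol per library (blue, control-EVs; red, HS-EVs; shape, replicate number) and a bar at the log10 of each group's mean + 1. miR-93 and miR-20a lie on top in every library, and the groups overlap for every member except miR-20b, whose 6 values rest on 0 to 2 reads.

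A member was called where its limma adjusted p (Benjamini-Hochberg over all 512 miRNAs) was at most 0.3 and its log2 fold change at least 1 in size, and 0 of 8 members were. The background was the same, with 0% of all miRNAs called (0 of 512, smallest adjusted p 0.408). At an unadjusted p of 0.05 or less, limma gave 1 member, miR-20b, against 4.88% of all miRNAs (25 of 512). miR-20b stayed there with a pseudocount of 0.5 (limma p 0.0298). It did not with the replicate block (limma p 0.0591), pseudocounts of 5 and 10 (0.106 and 0.108), limma's trend (0.162) or the other scalings. On recovered reads, the quasi-likelihood test of edgeR called 3 of the 512 miRNAs (26 at an unadjusted p of 0.05 or less) and DESeq2 called 0 (10 at that p), and in neither was a member among them. The groups did not overlap for 1 member, again miR-20b, against 6.45% of all miRNAs (33 of 512). The median log2 fold change of the 8 members was -0.41, beside 0.01 over all miRNAs, and it was -0.39 over the 7 members other than miR-20b. Without HS-EVs replicate 1 the median of the 8 members was -0.13, and without HS-EVs replicate 2 it was -0.61. All 7 members other than miR-20b had a fold change under 0, as had 256 of the 512 miRNAs, but that of miR-20a changed sign with the scaling (given with its values).

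**Figure D2:**
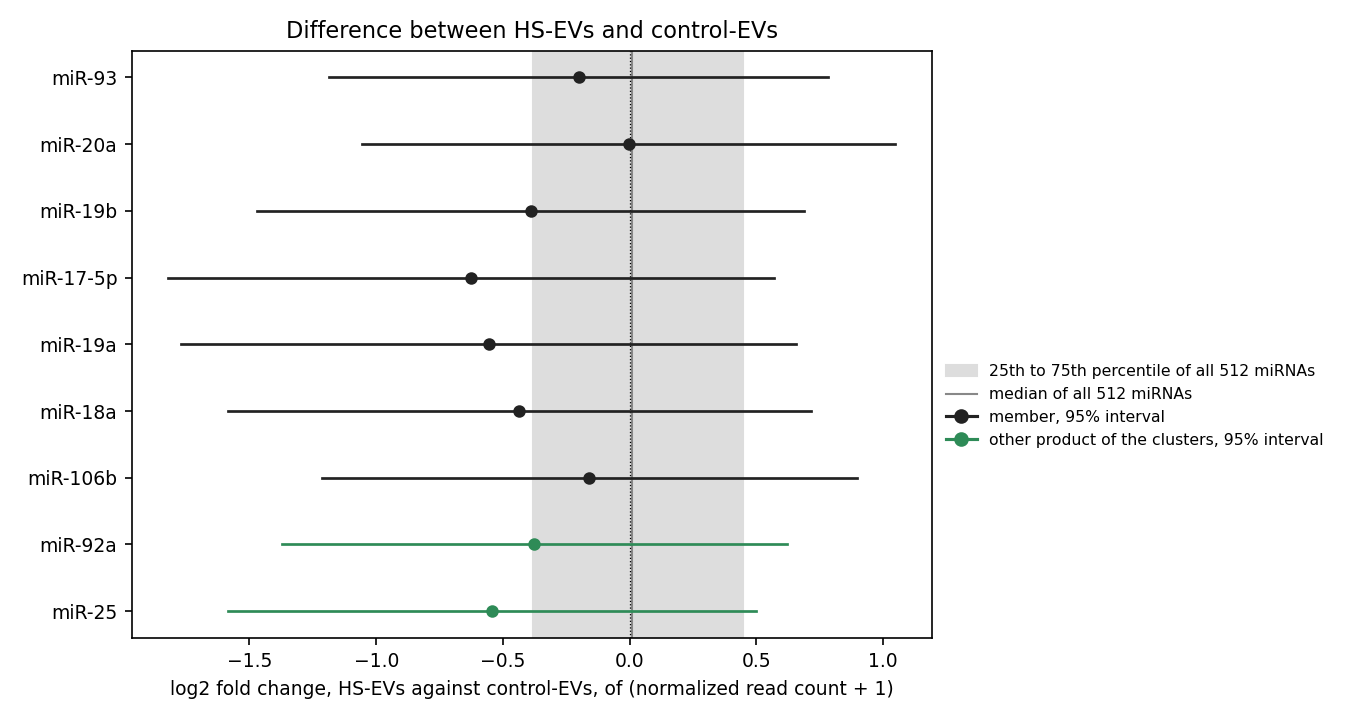
Log2 fold change of HS-EVs against control-EVs for the 7 members other than miR-20b (black) and for miR-92a and miR-25 of the same clusters (green), on the scale of log2(normalized read count + 1), with 95% limma intervals from 3 libraries per group. The grey band runs from the lower to the upper quartile of all 512 miRNAs (-0.38 to 0.45), and every interval includes 0.

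miR-93, the leading member, comes from the miR-106b-25 cluster. Its normalized read count was 1445, 2163 and 1822 in the control-EVs and 1356, 1967 and 1405 in the HS-EVs, each in replicate order and from 330 to 3102 reads. Replicate 2 was the highest library of each group, and the groups overlapped (1810 ± 359 against 1576 ± 339, SD, n = 3). The log2 fold change was -0.20 (SE 0.44, limma adjusted p 0.952), with a 95% interval of -1.18 to 0.78. For miR-93 it was -0.10 without HS-EVs replicate 1, -0.06 without control-EVs replicate 2, -0.35 without control-EVs replicate 1 and -0.37 without HS-EVs replicate 2. In the last case the groups of miR-93 did not overlap, as for 13.7% of all miRNAs.

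miR-20a, of the miR-17-92 cluster, had the smallest fold change of the members. It had 453, 668 and 699 normalized read counts in control-EVs and 411, 830 and 616 in HS-EVs, in replicate order and from 100 to 958 reads. Replicate 1 was the lowest library of each group, and the highest of all was HS-EVs replicate 2. The means were 607 ± 134 and 619 ± 210 (SD, n = 3), the log2 fold change was close to 0 (SE 0.47, limma adjusted p 0.997), and its 95% interval ran from -1.06 to 1.05. The sign was not stable: when bta-miR-1246 was left out of the library totals used for scaling, the log2 fold change of miR-20a was 0.10, and without HS-EVs replicate 1 it was 0.26. It was -0.24 without HS-EVs replicate 2, and -1.53 when scaled by all reads, which moved the median of all miRNAs to -0.79.

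miR-17-5p, which gives the family its name and sits first in its cluster, had the most negative fold change among the members above 3 reads when all 6 libraries were used. That of miR-19a was more negative when replicate 2 or 3 of either group was left out alone. The control-EVs held 53.2, 181 and 128 normalized read counts (29, 260 and 65 reads), and the HS-EVs held 69.8, 79.2 and 60.3 (17, 72 and 37 reads). The HS-EVs lay close together, whereas the control-EVs held both the lowest value and the 2 highest, so the groups overlapped through control-EVs replicate 1. The means were 121 ± 64.4 and 69.8 ± 9.44 (SD, n = 3) and the log2 fold change was -0.63 (SE 0.53, 95% interval -1.82 to 0.57, limma adjusted p 0.873). A two-sided exact permutation test of the 3 against 3 libraries gave p = 0.4, where 0.1 is the smallest possible. Without control-EVs replicate 1 the groups of miR-17-5p no longer overlapped, as for 20.7% of all miRNAs in that comparison, and the log2 fold change was -1.13 (limma p 0.0112, adjusted p 0.517). Without control-EVs replicate 2, the highest library, the log2 fold change of miR-17-5p was -0.25 (limma p 0.605) and the groups overlapped.

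miR-106b and miR-20b, the remaining members with this seed, were the least read, and a count of 0 allows up to 3 reads. miR-106b, the partner of miR-93 on the MCM7 transcript, had 5, 22 and 3 reads in control-EVs and 2, 8 and 5 in HS-EVs, or 10.1 ± 4.78 and 8.39 ± 0.357 normalized read counts (SD, n = 3). Its groups overlapped, and the log2 fold change was -0.16 (SE 0.47, limma adjusted p 0.952) and 0.16 without control-EVs replicate 2. Without control-EVs replicate 3 the log2 fold change of miR-106b was -0.46 and the groups did not overlap (as for 11.5% of all miRNAs). miR-20b, of the miR-106a-363 cluster, had 1, 2 and 1 reads in control-EVs and 0, 1 and 0 in HS-EVs. Every control library was above every HS library, but the 0 reads of HS-EVs replicates 1 and 3 allow up to 12.3 and 4.89 normalized read counts, above the 1.39 to 1.98 of the control-EVs. No difference in miR-20b was detectable at this depth and no fold change is given. Leaving out HS-EVs replicate 2, the only HS library with a read, gave the only call among the members (limma adjusted p 0.224), on 4 reads in all.

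The miR-19 family is represented by miR-19a, made only in the miR-17-92 cluster, and miR-19b. miR-19b had 143, 165 and 160 normalized read counts in control-EVs and 69.8, 140 and 171 in HS-EVs, and miR-19a had 58.7, 51.6 and 51.4 against 16.4, 51.7 and 55.4. For both, HS-EVs replicate 1 was the lowest of the 6 libraries (17 and 4 reads) and HS-EVs replicate 3 was within or above the control range. The log2 fold changes were -0.39 for miR-19b (SE 0.48) and -0.56 for miR-19a (SE 0.54), both with a limma adjusted p of 0.873. Without HS-EVs replicate 1 the log2 fold changes of miR-19b and miR-19a were -0.01 and -0.007. Without HS-EVs replicate 3 they were -0.65 and -0.85, and the groups of miR-19b then did not overlap (as for 10.4% of all miRNAs). The family sum was 202, 217 and 211 in control-EVs, the tightest of the family sums (210 ± 7.57, SD), against 86.3, 191 and 227 in HS-EVs (168 ± 73.0, SD). The log2 ratio of these means was -0.32, and -0.008 without HS-EVs replicate 1.

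miR-18a, the only listed member of the miR-18 family, was read 6, 31 and 14 times in control-EVs and 3, 19 and 6 times in HS-EVs. Its normalized read counts were 11.0, 21.6 and 27.7 against 12.3, 20.9 and 9.78. The groups overlapped, the means were 20.1 ± 8.43 and 14.3 ± 5.83 (SD, n = 3), and the log2 fold change was -0.44 (SE 0.51, limma adjusted p 0.873). In HS-EVs replicate 1 the value was at the limit of 3 reads. The log2 fold change of miR-18a was -0.80 without control-EVs replicate 1 and -0.73 without HS-EVs replicate 2, but -0.17 without control-EVs replicate 3 and -0.21 without HS-EVs replicate 3. In the first of these cases the groups of miR-18a did not overlap, as for 20.7% of all miRNAs.

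Summed by seed, the miR-17 family dominated. It took 91.6% ± 1.26 of the member reads in control-EVs and 92.6% ± 2.58 in HS-EVs (SD, n = 3), the miR-19 family 7.74% ± 1.38 and 6.79% ± 2.70, and miR-18a 0.708% and 0.576%. The miR-17 family had 2550 ± 542 and 2274 ± 545 normalized read counts, and its groups overlapped. Within it miR-93 alone held 65.2% ± 1.97 of the member reads in control-EVs and 64.5% ± 4.77 in HS-EVs, and miR-20a held 21.8% ± 2.03 and 24.8% ± 3.18. In single libraries miR-20a held 20.8%, 20.4% and 24.1% of the member reads in control-EVs and 21.1%, 26.8% and 26.5% in HS-EVs. These shares, which do not depend on the scaling between libraries, overlapped between the groups for 7 of the 8 members, the exception being miR-20b.

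**Figure D3:**
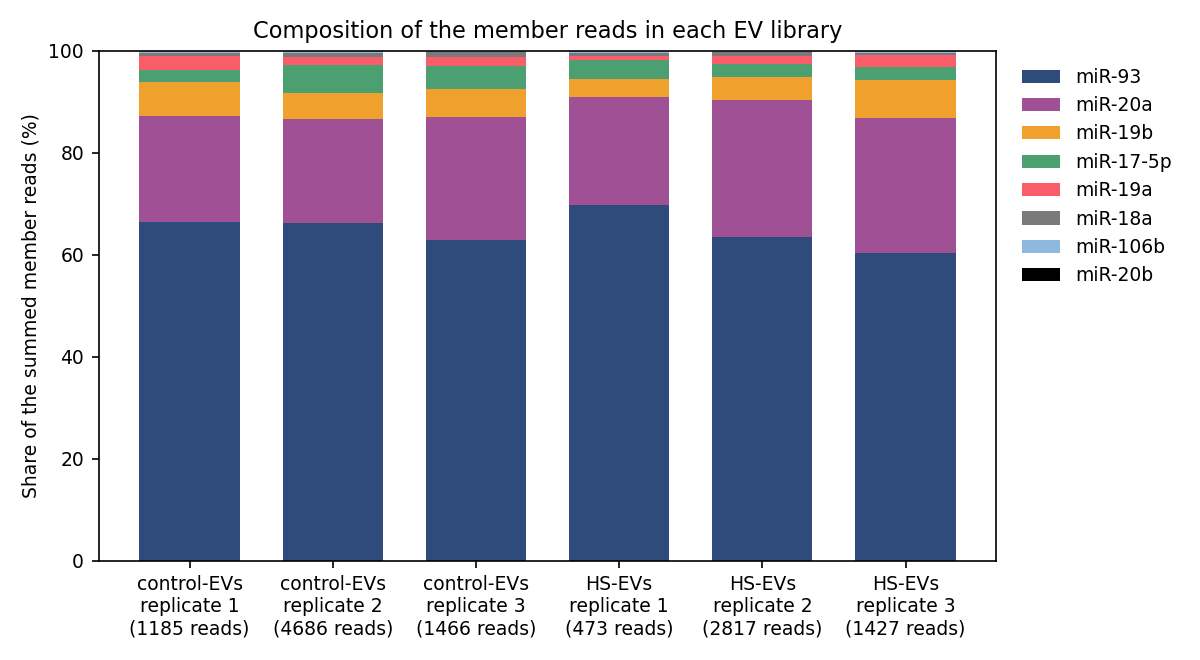
Share of the summed member reads (in %) that each of the 8 members took in each EV library, with the summed member reads under each bar. miR-93 takes 60.4% to 69.8% and miR-20a 20.4% to 26.8% of every bar, while miR-17-5p takes 2.45% to 5.55%.

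The share of miR-17-5p differed between libraries. It was 5.55% of the member reads in control-EVs replicate 2 (95% Wilson interval 4.93% to 6.24%) and 2.45% in control-EVs replicate 1 (1.71% to 3.49%), so 2 libraries of the same group differed by more than counting error. The HS-EV shares of 3.59%, 2.56% and 2.59% lay inside this control range. The share of miR-19a was 0.846% in HS-EVs replicate 1 (0.329% to 2.15%) and 1.58% to 2.70% in the other 5 libraries, and its interval reached into that range. Intervals and limits cover counting error only.

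By cluster, the miR-106b-25 members miR-93 and miR-106b took 65.5% ± 2.11 of the member reads in control-EVs and 64.9% ± 4.82 in HS-EVs (SD, n = 3). The miR-17-92 members miR-17-5p, miR-18a, miR-19a and miR-20a took 28.7% ± 2.44 and 29.9% ± 3.22. In normalized read counts the miR-106b-25 sum was 1820 ± 362 against 1584 ± 340, and the miR-17-92 sum 802 ± 196 against 744 ± 236. Both sums overlapped between the groups. Without HS-EVs replicate 1 the log2 ratio of the group means of the miR-17-92 sum was 0.10, against -0.11 with all 6 libraries, and it was 0.01 when bta-miR-1246 was left out of the totals used for scaling. Of the listed members only miR-20b comes from the miR-106a-363 cluster alone, with the 5 reads given for it.

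Other products of these clusters were far from evenly read. miR-92a, made in the miR-17-92 cluster and in its paralogue miR-106a-363, had 4950, 7056 and 5608 normalized read counts in control-EVs and 4191, 5991 and 3570 in HS-EVs. Its groups overlapped and its log2 fold change was -0.38 (SE 0.45, limma adjusted p 0.873). miR-25, which shares the seed of miR-92a and the MCM7 transcript of miR-93, had 1885, 3557 and 2519 against 1779, 2263 and 1353, with a log2 fold change of -0.54 (SE 0.47, limma adjusted p 0.873). In every library miR-92a was read more often than each miR-17-92 member, and miR-25 more often than miR-106b, while miR-93 exceeded miR-25 in HS-EVs replicate 3 only. miR-17-3p, cut from the opposite arm of the miR-17 hairpin, had 1 to 4 reads and miR-363 had 0 or 1, so no fold change is given for either.

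Ratios of reads within a library (with 0.5 added to each) gave the balance of the members free of any scaling. Among the 45 pairs of 10 miRNAs (the members other than miR-20b, with miR-92a, miR-25 and miR-17-3p), the groups overlapped in 40, and the other 5 all held miR-17-3p with its 1 to 4 reads. The steadiest pair was miR-93 and miR-92a, which come from different clusters: miR-92a had 2.54 to 3.43 reads for each read of miR-93, and the log2 ratio had an SD of 0.15 over the 6 libraries. Both were among the most read of the 10, and these SDs include counting error, which is larger for pairs with few reads. On the MCM7 transcript the levels were uneven, as miR-25 had 0.963 to 1.64 reads per read of miR-93, whereas miR-93 had 132 to 264 reads per read of miR-106b. The width of this last range includes the counting error of miR-106b, which had 2 to 22 reads. miR-93 had 2.28 to 3.29 reads per read of miR-20a in the 6 libraries. miR-19b had 2.42 to 3.89 per read of miR-19a. These 2 log2 ratios had SDs of 0.24 and 0.23.

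Within the miR-17-92 cluster the balance of miR-20a and miR-17-5p was less steady. miR-20a had 8.39, 3.68 and 5.41 reads per read of miR-17-5p in control-EVs and 5.74, 10.4 and 10.1 in HS-EVs, an SD of 0.59 on the log2 scale. The groups overlapped in this ratio too, control-EVs replicate 1 lying between the HS libraries. In the middle tier miR-17-5p had 0.355 to 1.10 reads per read of miR-19b and 0.908 to 3.89 per read of miR-19a. It exceeded miR-19b only in control-EVs replicate 2 (260 against 237 reads) and equalled it in HS-EVs replicate 1 (17 reads each). It was below miR-19a only in control-EVs replicate 1 (29 against 32 reads). The Wilson intervals of the shares overlapped in each of these cases, so no change of order beyond counting error was seen. miR-93 over miR-20a, miR-20a over miR-19b (3.15 to 5.93) and miR-19b over miR-19a kept their order in all 6 libraries. So did miR-18a over miR-106b (1.18 to 4.14), but on 2 to 31 reads, with 3 against 2 in HS-EVs replicate 1.

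**Figure D4:**
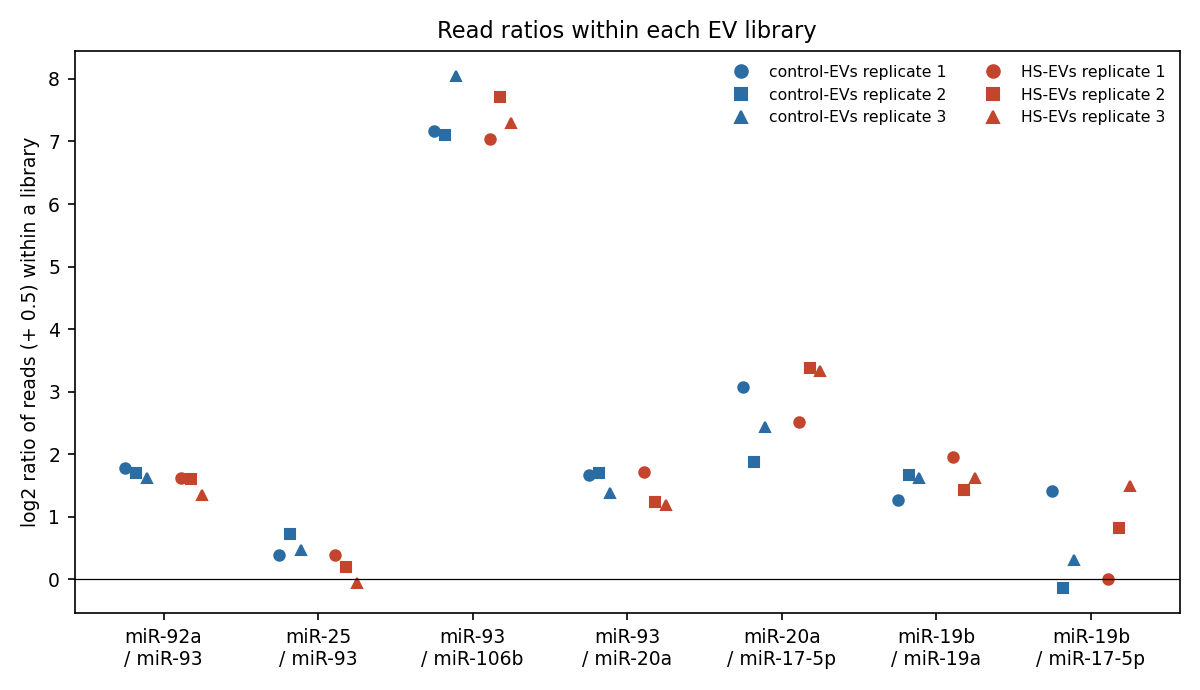
Log2 ratio of the reads of 7 miRNA pairs (with 0.5 added to each miRNA's reads) within each EV library, with 1 symbol per library (blue, control-EVs; red, HS-EVs; shape, replicate number) and a line at equal reads. The miR-92a/miR-93 ratio varies least over the libraries, the miR-93/miR-106b ratio lies above 7 in every library, and the groups overlap in each of the 7 pairs.

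The miRNAs whose level was most like the summed members were sought among the 126 other miRNAs with at least 10 reads in every library, by the SD over the 6 libraries of the log2 ratio of their reads to the summed member reads. The smallest SDs were those of miR-148b (0.12), miR-16a (0.13) and miR-192 (0.14), beside a median of 0.50 over the 126. Their lowest read numbers in a library were 65, 203 and 16, so counting error enters these SDs and the order of the first positions is uncertain. miR-92a, from the same clusters, was in position 8 (0.20) and miR-25 in position 26 (0.31). bta-miR-1246 was last (SD 2.14). This is a description over 6 libraries, and miR-16a is also one of the red blood cell miRNAs below.

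Beside the label of the source cells, miRNAs known from granulosa cells were counted, with those of other sources that follicle aspirates or serum could bring. The methods include a lysis of red blood cells before culture. Of 6 granulosa-linked miRNAs, 4 were read in every library (miR-383 and miR-212 were not), with a summed normalized read count of 8346 to 16553 in control-EVs and 8509 to 15241 in HS-EVs, most of it miR-21-5p. All 5 red blood cell miRNAs were read in every library (6112 to 9968 and 5027 to 7125, led by miR-16b), as were all 4 of white blood cells and platelets (221 to 340 and 269 to 362, led by miR-142-5p). Liver-derived miR-122, which serum carries, had 12232 to 25400 normalized read counts in control-EVs and 7524 to 13633 in HS-EVs. None of the listed markers was at 0 in all libraries. Since miRNAs of every list were read, and most of the granulosa-linked sum was miR-21-5p, these counts do not settle the label of the source cells. The log2 ratio of the granulosa-linked sum to the summed members had an SD of 0.32 over the 6 libraries, that of the red blood cell sum 0.35, that of the white blood cell and platelet sum 0.51 and that of miR-122 0.59. What part RNA from these sources had in the levels of the members was not tested.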

How the data were processed

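Small RNA of 6 EV libraries was analysed, 3 control-EVs and 3 HS-EVs, grouped by the incubation temperature in the labels. Submitters' processing notes name cutadapt 1.11, Bowtie2 2.2.2, edgeR and the build UMD3.1. According to the methods, reads were collapsed by molecular identifier and normalized by TMM. The authors deposited 1 normalized read count per miRNA and library, treated here as a signal and not as raw counts. Every value was a whole multiple (within 0.01) of the smallest value above 0, which was taken as 1 read. The recovered totals were 274434 to 2360980 reads, above the study's own numbers of miRNA reads for a reason not known. A count of 0 then allows up to 3 reads (2.09 to 12.3 normalized read counts). No library pair held identical values and no column of values was left unused.

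limma 3.58.1 (R 4.3.3, default lmFit and eBayes) was run on log2(normalized read count + 1) over all 512 miRNAs, with Benjamini-Hochberg adjustment and no block, so fold changes of low miRNAs are understated. The threshold, an adjusted p of at most 0.3 and a log2 fold change of at least 1 in size, is that of the study. Sums, shares (Wilson 95% intervals) and read ratios have no test. The script was tested on simulated data.

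Alternatives were scaling by all reads, by reads other than bta-miR-1246 or by DESeq2 size factors, pseudocounts of 0.5, 5 and 10, a filter on low values, limma's trend, edgeR 4.0.16 (quasi-likelihood) and DESeq2 1.42.0 on recovered reads, a replicate block, and leaving out each library or both libraries of replicate number 1.

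Named in the text were all members, the other products of the 3 clusters, bta-miR-1246, the 3 miRNAs most like the summed members, and of each marker list the counts and the miRNA with the most reads. Members that are nearly identical in sequence (miR-17-5p and miR-106a, miR-20a and miR-20b, miR-18a and miR-18b, miR-19a and miR-19b) could have exchanged reads in the authors' counting, so their split is uncertain. Seed groups were assigned by name, and gene neighbours were read from RefSeq. The members and lists were chosen with earlier results of these data known.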

Additional observations from a re-analysis of the deposited data

How the results depend on the processing

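The number of members past the threshold stayed at 0 under every other scaling, pseudocount, test and block that was run and under a filter on low values, which left 6 members to test, and ranged from 0 to 1 when single libraries were left out (miR-20b without HS-EVs replicate 2). Members whose groups did not overlap ranged from 1 to 3 without single libraries, beside 8.79% to 20.7% of all miRNAs, and numbered 4 without both libraries of replicate number 1 (miR-17-5p, miR-18a and miR-20b lower and miR-19a higher in HS-EVs), where 186 of the 512 miRNAs did not overlap either. Scaling by all reads, which bta-miR-1246 dominates, moved the median of all miRNAs to -0.79 and that of the members to -1.72. Under it the log2 ratios of group means were -0.92 for all members, -0.91, -1.23 and -0.92 for the miR-17, miR-18 and miR-19 families, and -0.79 and -0.97 for the miR-17-92 and miR-106b-25 clusters, against -0.18, -0.17, -0.49, -0.32, -0.11 and -0.20 with the deposited scaling. Without single libraries these 6 ratios ranged from -0.38 to -0.04, -0.37 to -0.02, -0.86 to -0.19, -0.60 to -0.008, -0.36 to 0.10 and -0.39 to -0.05, and the median of the members from -0.61 to -0.13. The miR-17-92 ratio also turned to 0.01 when scaled by reads other than bta-miR-1246. Fold changes that changed sign were those of miR-20a (0.10 scaled by reads other than bta-miR-1246, 0.0332 in edgeR's quasi-likelihood test, 0.0654 without both libraries of replicate number 1, and -0.24 to 0.26 without single libraries), miR-19a (0.0549 without both libraries of replicate number 1) and miR-106b (-0.46 to 0.16 without single libraries). The cause of these shifts was not tested. The difference in share of the member reads (HS-EVs minus control-EVs, in percentage points) was -0.62 for miR-93 and ranged from -3.23 to 1.45 without single libraries. It also changed sign for miR-19a, miR-19b and miR-106b, and for miR-20a it was 3.00 and ranged from 2.0 to 4.83.

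Calls over all 512 miRNAs were few and depended on the setting: 1 with a pseudocount of 0.5, 2 with limma's trend, 3 with edgeR's quasi-likelihood test and 0 to 4 without single libraries, with no member among them except miR-20b as given. Without both libraries of replicate number 1 there were 31 calls, none of them a member. The labels do not say what the replicate numbers link. Deviations from the group means correlated at 0.14, 0.14 and 0.08 between same-numbered libraries, each best with its own number. These values cannot settle whether the samples are paired, because counting error of miRNAs with few reads lowers them. With the replicate block, 0 members passed, the smallest adjusted p over all miRNAs was 0.505, and the median of the members stayed at -0.41. Depth limits miR-18a, miR-106b and miR-20b most, and HS-EVs replicate 1 throughout.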
